A study of Mus musculus with 5 samples.

Results

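The Toll-like receptor family of the mouse was followed in leukocytes of the pancreas across 5 mice that differed in an MRI signal. The family was taken as 10 listed genes, Tlr1 to Tlr9 and Tlr13, and each gene was represented by the probe set that carries its symbol alone, with the highest mean where there were several. Of these 10 genes 9 had such a probe set, out of 19938 genes on the array, and each of the 9 had 1. Tlr5, the receptor for flagellin, was not analysed here. The cells were CD45+ cells sorted by flow cytometry from the pancreas of 5 female wild-type NOD mice of 10 weeks, a strain prone to spontaneous autoimmune diabetes. MRI of each pancreas preceded its removal and gave 1 T2 value, a transverse relaxation time in ms, per animal. In order of T2 from low to high the mice were 5 (28.98 ms), 4 (30.02 ms), 3 (32.77 ms), 2 (35.24 ms) and 1 (35.3 ms), and per-mouse values are given in this order. There was no control group, and the question set by the design was which transcripts varied with the MRI signal. No contrast agent and no insulitis score is given in the labels, so high or low T2 is not read as more or less disease.

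Toll-like receptors are membrane proteins that recognise conserved parts of microbes and, in some cases, nucleic acids of the host. Tlr1, Tlr2, Tlr4 and Tlr6 sit at the cell surface, where they bind lipoproteins and lipopolysaccharide, while Tlr3, Tlr7, Tlr8, Tlr9 and Tlr13 sense nucleic acids inside endosomes. All signal through adaptor proteins, mainly Myd88, to NF-kB, and some also to interferon regulatory factors. Macrophages, dendritic cells and neutrophils use many of the receptors, and B cells and plasmacytoid dendritic cells use Tlr7 and Tlr9.

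Values are RMA intensities on a linear scale. A gene was taken into the test when its mean log2 intensity over the mice was at least 6, a filter that 6603 genes passed. Tlr1, Tlr2 and Tlr6 at the surface and Tlr7, Tlr9 and Tlr13 in endosomes passed it, and Tlr4, Tlr3 and Tlr8 did not. For those 3 the values and slopes come from the same fit over all 19938 genes. Probe sets differ in how well they hybridise, so the level of a receptor is not ranked against that of another, and surface and endosomal receptors are compared by their changes over the mice. Ptprc, which encodes CD45, read 2197, 2061, 1962, 2120 and 2357 in mice 5, 4, 3, 2 and 1, a log2 SD of 0.10 (n = 5). The lists of islet, ductal and fibroblast markers had no gene past the filter, while 4 of the 6 acinar markers with a probe set passed it. In a sorted mixture fewer cells of a type and less RNA per cell cannot be told apart.

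None of the receptors had a T2 slope that passed limma's moderated test. Of the 6 past the filter, 0 had an adjusted p under 0.05, where 0 of all 6603 genes did (0%), and 0 had an unadjusted p under 0.05, where 5.29% of genes did. The 3 receptors under the filter gave 0 calls as well, where 0 of 19938 genes (0%) passed the adjusted threshold and 3.24% had an unadjusted p under 0.05. Slopes of 5 of the 6 receptors past the filter were negative, meaning higher at lower T2, against 67.9% of all genes past the filter. Under the filter 2 of 3 were negative, where 46.3% of the 19938 genes were. The lowest limma adjusted p of a receptor was 0.828 past the filter, for Tlr2, and 0.813 under it, for Tlr4. These come from fits over different sets of genes. In the fit over all 19938 genes Tlr2 and Tlr13 had 0.813 as well. With 5 mice the intervals are wide for some members, so these results do not show that the receptors were the same at every T2.

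**Figure D1:**
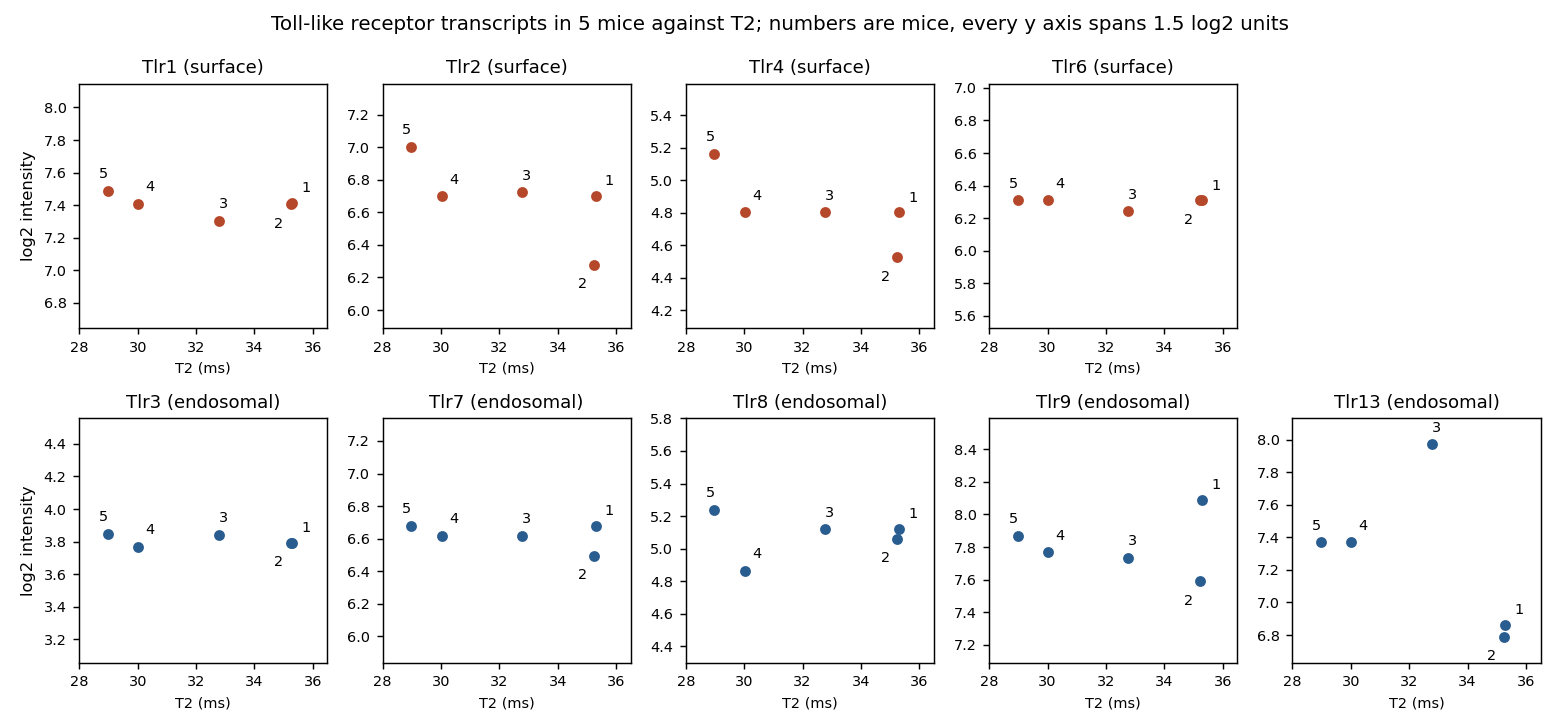
Log2 intensity (y axis, of equal span in each panel) of 4 surface and 5 endosomal Toll-like receptor genes against T2 in ms (x axis), with 1 point for each of the 5 mice, labelled with its number. Tlr13 had the widest spread, highest in mouse 3, and Tlr2 and Tlr4 shared a shape with mouse 5 highest and mouse 2 lowest.

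Tlr2, which pairs with Tlr1 or Tlr6 to bind bacterial lipoproteins, varied most among the surface receptors. Intensities were 128, 104, 106, 77.7 and 104 in mice 5, 4, 3, 2 and 1, a range that 7.78% of all genes past the filter matched or exceeded. Mouse 5, of lowest T2, stood highest and mouse 2 lowest, while the other three mice, of T2 between 30.02 and 35.3 ms, lay within a narrow band. The slope was -0.07 ± 0.031 log2 per ms (SE, n = 5). As a fitted ratio of the lowest over the highest T2, 6.32 ms apart, this was 1.33-fold (95% interval 0.910 to 1.94; limma adjusted p = 0.828), and an exact permutation of T2 over the mice gave p = 0.167 (two-sided). Without mouse 2 the slope was -0.034 ± 0.024, without mouse 5 -0.043 ± 0.045, and without mouse 1 -0.095 ± 0.027 (limma adjusted p = 0.493). It was -0.066 ± 0.036 without mouse 3 and -0.081 ± 0.036 without mouse 4. These removals were read after the values were seen, so they are no test of a T2 slope.

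Tlr4, the lipopolysaccharide receptor, lay under the filter and had nearly the same shape. It read 35.8 in mouse 5, 27.9 in mice 4, 3 and 1, and 23.0 in mouse 2. Such equal values on 3 arrays are common among genes of low signal here. The slope was -0.06 ± 0.026 (fold 1.30, 95% interval 0.928 to 1.81; limma adjusted p = 0.813; exact permutation p = 0.1). With log2 values centred on their means, Tlr2 and Tlr4 differed by a root mean square of 0.060 over the 5 mice.

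Tlr1 and Tlr6, close relatives that neighbour each other on chromosome 5 with 0 protein-coding genes between them, varied least among the surface receptors. Tlr1 read 180, 170, 158, 170 and 170 in mice 5, 4, 3, 2 and 1. The 95% interval of its slope ran from -0.04 to 0.022, which leaves room for a fold between 0.907 and 1.19 across the T2 range. Tlr6 read 79.3 in mice 5, 4, 2 and 1 and 75.7 in mouse 3, with a fold interval from 0.928 to 1.08. Both were lowest in mouse 3. Whether the probes of these similar genes pick up each other's transcripts was not tested.

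The upstream stretch of Tlr2 is shown because this gene led the surface group. Promoters of 8 of the 10 listed genes were found in RefSeq for GRCm38.p6, and the 250 bases before the annotated start were searched on both strands. The motifs were the octamer ATGCAAAT, the AP-1 element TGANTCA, the Sp1 box GGGCGG, the PU.1 element GAGGAAGT and the NF-kB consensus. Capitals mark matches, which describe letters only and do not show binding. For Tlr2, at chr3:83841609-83841858 on the minus strand, 2 overlapping matches to the NF-kB consensus start 173 and 172 bases before the annotated start, and 2 Sp1 boxes start 69 and 48 bases before it.
Tlr2: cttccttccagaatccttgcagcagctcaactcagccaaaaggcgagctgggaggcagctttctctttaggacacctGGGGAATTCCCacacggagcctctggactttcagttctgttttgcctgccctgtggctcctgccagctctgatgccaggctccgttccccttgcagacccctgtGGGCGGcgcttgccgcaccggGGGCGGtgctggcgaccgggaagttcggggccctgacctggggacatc
An NF-kB match was present in 7.25% and an Sp1 box in 32.7% of 32851 promoter windows of that length. Among the receptors 2 held an NF-kB match, Tlr2 and Tlr3, and 2 an Sp1 box, Tlr2 and Tlr5. A PU.1 element was found in 2.44% of all windows and, among the receptors, for 1, Tlr1.

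Tlr13, an endosomal receptor for bacterial ribosomal RNA, varied most in the family. Intensities were 165, 165, 251, 111 and 116 in mice 5, 4, 3, 2 and 1, a 2.26-fold span. Of all genes past the filter 1.95% had a range at least as wide. Both mice with T2 above 35 ms were low and mouse 3, in the middle of the T2 range, was highest, so the values did not follow T2 in order. The slope of -0.08 ± 0.071 had an interval of -0.28 to 0.12 (fold 1.45, 0.600 to 3.48; limma adjusted p = 0.83; exact permutation p = 0.433). Without mouse 3 the slope was -0.092 ± 0.0095 (limma adjusted p = 0.613). Mouse 3 is singled out here after its value was seen, so its removal is no test of a T2 slope. With each of the other mice left out, the slope ran from -0.13 ± 0.11 (without mouse 5) to -0.049 ± 0.092 (without mouse 2).

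The neutrophil marker list had the same top mouse. All 7 neutrophil markers past the filter, of 10 on the list, were highest in mouse 3, as were 10.9% of all genes past the filter. The list mean was 7.97, 6.72, 8.77, 6.98 and 7.44 in mice 5, 4, 3, 2 and 1, on the log2 scale. The list mean was lowest in mouse 4, which was level with mouse 5 for Tlr13. The monocyte list, with 5 of 8 markers past the filter, read 8.88, 8.64, 8.96, 8.54 and 8.90, and the conventional dendritic cell list, with 4 of 10, read 7.17, 7.17, 7.26, 7.20 and 7.16. Both of these list means were highest in mouse 3 as well. The macrophage list, with 8 of 12 markers past the filter, was 9.04, 9.07, 8.42, 7.79 and 7.65 in the same order, lowest in the 2 mice that were also lowest for Tlr13. The part of these cell types in the Tlr13 values was not tested.

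The promoter of Tlr13 is shown because this receptor had the widest range. At chrX:106143025-106143274 on the plus strand of the same build, the window held 0 matches to the 5 motifs.
Tlr13: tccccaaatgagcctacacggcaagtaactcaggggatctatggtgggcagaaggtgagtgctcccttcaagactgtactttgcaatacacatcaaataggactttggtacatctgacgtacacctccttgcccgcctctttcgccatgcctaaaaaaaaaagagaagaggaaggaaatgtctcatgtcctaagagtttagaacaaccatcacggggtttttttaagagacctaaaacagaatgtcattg
The absence of these letters from the window says nothing of the factors that act on the gene.

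**Figure D2:**
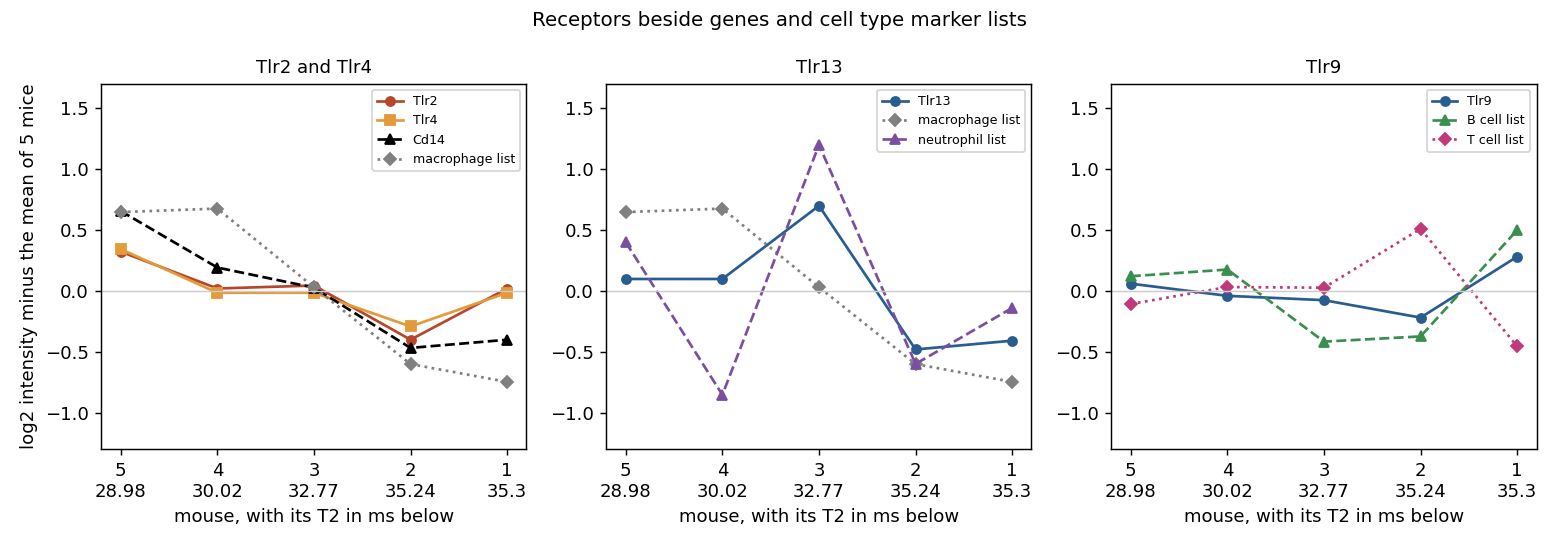
Log2 intensity minus the mean of the 5 mice (y axis) for mice ordered by T2 from low to high (x axis, T2 in ms below the mouse number). Tlr2 and Tlr4 are drawn with Cd14 and the macrophage list, Tlr13 with the macrophage and neutrophil lists, and Tlr9 with the B and T cell lists. Tlr13 and the neutrophil list peaked in mouse 3, and Tlr9 and the B cell list in mouse 1.

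Tlr9, the receptor for unmethylated CpG DNA, was highest in mouse 1 and lowest in mouse 2, the pair with nearly equal T2. It read 234, 218, 213, 193 and 273 in mice 5, 4, 3, 2 and 1. The values of the other four mice ran in T2 order and mouse 1 stood above them. With all mice the slope was 0.0017 ± 0.033 (95% interval -0.09 to 0.094). Without mouse 1 the slope was -0.039 ± 0.0079 (limma adjusted p = 0.449), and without mouse 2 it was 0.034 ± 0.028. Mouse 1 is singled out here after its value was seen, so its removal is no test of a T2 slope.

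Of 9 B cell markers past the filter 8 were highest in mouse 1, as were 14.8% of all genes. The B cell list mean was 8.89, 8.94, 8.35, 8.40 and 9.27 in mice 5, 4, 3, 2 and 1. All 8 T cell markers past the filter were highest in mouse 2 (12.3% of all genes), where the T cell list read 9.12, against 8.16 in mouse 1. The acinar list showed the same extremes as Tlr9, with all 4 of its markers past the filter highest in mouse 1 and lowest in mouse 2, at list means of 7.59 and 6.75. The plasmacytoid dendritic cell list, with 6 of 10 markers past the filter, read 6.85, 6.41, 6.67, 6.67 and 6.40 in mice 5, 4, 3, 2 and 1, lowest in mouse 1, where Tlr9 was highest. With the acinar list mean as a covariate, the T2 slope of Tlr9 was 0.0034 ± 0.0066. That fit re-estimates the T2 slope with fewer residual degrees of freedom. The part of these cells in the Tlr9 values was not tested.

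The window upstream of Tlr9 is printed for its octamer, an element known from genes active in B cells. At chr9:106222348-106222597 on the plus strand, the octamer starts 72 bases and an AP-1 element 58 bases before the annotated start.
Tlr9: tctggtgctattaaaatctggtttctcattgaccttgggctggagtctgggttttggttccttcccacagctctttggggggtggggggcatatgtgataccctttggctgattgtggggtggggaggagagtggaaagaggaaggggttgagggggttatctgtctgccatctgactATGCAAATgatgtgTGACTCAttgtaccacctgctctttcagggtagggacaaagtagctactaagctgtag
Of all windows 1.60% held the octamer and 6.75% an AP-1 element, and Tlr9 was the single receptor with either among the 8 genes searched.

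Tlr7, which senses single-stranded RNA, read 103, 98.3, 98.3, 90.3 and 102 in mice 5, 4, 3, 2 and 1. It was lowest in mouse 2 and otherwise spanned little, with a fold interval of 0.904 to 1.22 for the T2 slope. Its neighbour Tlr8, with 0 protein-coding genes between them on the X chromosome, lay under the filter. Tlr8 read 37.7, 29.1, 34.8, 33.3 and 34.8 in mice 5, 4, 3, 2 and 1, lowest in mouse 4. These adjacent genes thus had different lowest mice. Tlr3, the receptor for double-stranded RNA, was between 13.6 and 14.4 in all mice, near the low end of the scale, where the arrays give little information on differences. Slopes were -0.01 ± 0.012 for Tlr7, 0.0014 ± 0.025 for Tlr8 and -0.0033 ± 0.0061 for Tlr3. Tlr12, a mouse receptor outside the listed genes, was also under the filter and read 17.0, 16.3, 22.3, 17.0 and 16.7, highest in mouse 3. Its slope was 0.0058 ± 0.034.

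Surface and endosomal receptors overlapped in their T2 slopes. The mean of the 4 surface receptors changed by -0.03 ± 0.017 log2 per ms and that of the 5 endosomal receptors by -0.02 ± 0.021, by ordinary least squares (SE, n = 5). The difference of these means, surface minus endosomal, had a slope of -0.01 ± 0.019, smaller than its standard error. Over the 3 and 3 receptors past the filter the same slope was 0.0064 ± 0.029, so even its sign depended on which receptors were counted. Without Tlr13 it was -0.02 ± 0.014 over 3 surface and 2 endosomal receptors. Median member slopes were -0.03 for the 4 surface and -0.0033 for the 5 endosomal receptors, and the median of all genes past the filter was -0.0074. No test was made of these scores, because their members were chosen with earlier results known.

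**Figure D3:**
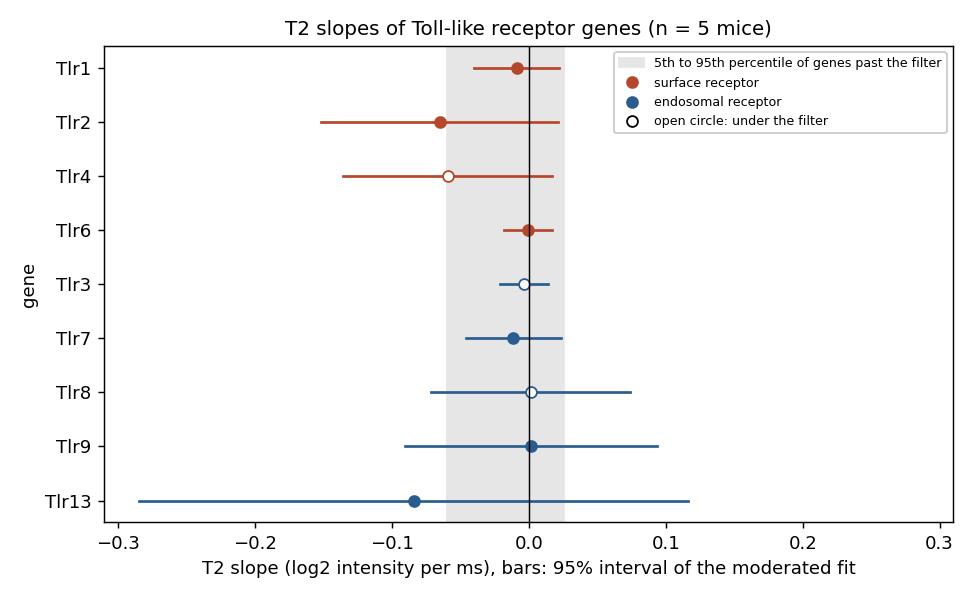
T2 slope in log2 intensity per ms (x axis) of each receptor (y axis), with bars for the 95% interval of the moderated fit over 5 mice. Filled circles passed the filter, open circles did not, and the grey band spans the 5th to the 95th percentile of slopes of genes past the filter, -0.06 to 0.026. The interval of every one of the 9 receptors includes 0.

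The receptors are next described by the mice at the ends of their range. Mouse 2 alone was lowest for 4 of the 6 receptors past the filter, Tlr2, Tlr7, Tlr9 and Tlr13, against 23.6% of all genes past it, and for 1 of the 3 under it, Tlr4, against 15.4% of the 19938 genes. Mouse 5 alone was highest for 3 of the 6, Tlr1, Tlr2 and Tlr7, against 34.3% of those genes, and for all 3 under it, against 19.8%. Mice 1 and 2 differ by little in T2, so their gap in Tlr2, Tlr7 and Tlr9 is a difference at almost equal T2. Equal values on 3 or more arrays were found for 1 of the 6 receptors past the filter, Tlr6, against 38.2% of genes, and for 1 of the 3 under it, Tlr4, against 58.9%.

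By likeness over the 5 mice, Tlr2 had its nearest profiles in Pepd, a dipeptidase, Myof, a membrane repair protein, and Fgd4, an exchange factor for Cdc42, at root mean square differences of 0.019, 0.020 and 0.024 in centred log2 values among 6602 genes. All 3 were highest in mouse 5 and lowest in mouse 2, as Pepd shows with 142, 118, 118, 85.0 and 118 in mice 5, 4, 3, 2 and 1. Pepd and Fgd4 had equal values on 3 arrays and Tlr2 on 2, and 38.2% of genes past the filter had equal values on 3 or more. Such equal values limit what the likeness to Tlr2 can show. Tlr13 was nearest to Hdc, the enzyme that makes histamine, at 0.092. Hdc read 143, 142, 190, 94.6 and 87.4 in the same order, highest in mouse 3 like Tlr13. Msrb1, a methionine sulfoxide reductase, and Cd33, a sialic acid receptor of myeloid cells, followed at 0.141 and 0.143. These distances describe 5 arrays and carry no test.

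Among the partners of the surface receptors, Itgam and Cd14 had the steepest slopes. Cd14, which hands lipopolysaccharide to Tlr4, read 197, 143, 127, 90.2 and 94.5 in mice 5, 4, 3, 2 and 1. Its slope was -0.15 ± 0.021, 1.95-fold between the ends of the T2 range (1.50 to 2.53), with a limma adjusted p of 0.333. Ly96, the partner that completes the Tlr4 receptor, lay under the filter at 24.4, 21.3, 22.5, 16.2 and 21.3. Its root mean square difference in centred log2 values was 0.086 from Tlr4 and 0.054 from Tlr2, while that of Cd14 was 0.254 from each. The measure is not scaled, so the wider range of Cd14, 1.12 log2 units against 0.72 for Tlr2, adds to its distance. Cd180, a homologue of Tlr4 on B cells, read 509, 364, 389, 356 and 561, highest in mouse 1 and lowest in mouse 2 like Tlr9. Its binding partner Ly86 read 709, 650, 600, 473 and 663, also lowest in mouse 2.

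Of the 10 genes on the list of co-receptors and accessory proteins 6 passed the filter. None passed over all genes, 3 had an unadjusted p under 0.05 with a negative slope, against 4.59% of all genes with that direction, and the median slope was -0.08. Besides Cd14 these were Itgam, the CD11b integrin chain, at -0.20 ± 0.017 (limma adjusted p = 0.243), and Cd36, a lipid scavenger receptor that assists Tlr2 and Tlr6, at -0.11 ± 0.039 (limma adjusted p = 0.828). The macrophage list, which holds none of these genes, had a mean slope of -0.23 ± 0.024. All 8 of its markers past the filter, of 12 on the list, had a negative slope, against 67.9% of all genes past it. Negative slopes were also found for all 8 large peritoneal macrophage markers past the filter, of 10 on the list (list mean -0.21 ± 0.040). The same held for all 4 mast cell markers past it, of 7 on the list (-0.16 ± 0.055), again beside 67.9% of all genes. The part of these cell types in the co-receptor values was not tested.

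Folding, transport and processing of the endosomal receptors depend on Unc93b1, a membrane protein that escorts them to endosomes, on the chaperones Hsp90b1 and Cnpy3, and on proteases that trim their ectodomains. Unc93b1 read 685, 684, 579, 443 and 668 in mice 5, 4, 3, 2 and 1, lowest in mouse 2, with a slope of -0.06 ± 0.037. Hsp90b1 read 1233, 1052, 883, 851 and 1138, and Cnpy3 251, 232, 230, 188 and 230, each again lowest in mouse 2. Steeper slopes were found for 3 of the proteases. Lgmn, asparagine endopeptidase, read 519, 530, 368, 297 and 267, a slope of -0.15 ± 0.015 (fold 1.95, 95% interval 1.62 to 2.35; limma adjusted p = 0.254), Ctsl had a slope of -0.18 ± 0.054 and Ctsb -0.09 ± 0.023. On this list of 13 genes 12 passed the filter, 10 slopes were negative, against 67.9% of all genes past the filter, 3 had an unadjusted p under 0.05 with a negative slope, against 4.59%, and 0 passed over all genes. When genes with equal values on 3 or more arrays were left out of the fit, 2 of 53 pathway genes tested passed limma's adjusted threshold, Itgam and Lgmn, where 35 of all 4079 genes did (0.858%). The list's median slope was -0.04. Lgmn, Ctsl and Ctsb also serve general protein breakdown in macrophage lysosomes, and the part of macrophages in their slopes was not tested.

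**Figure D4:**
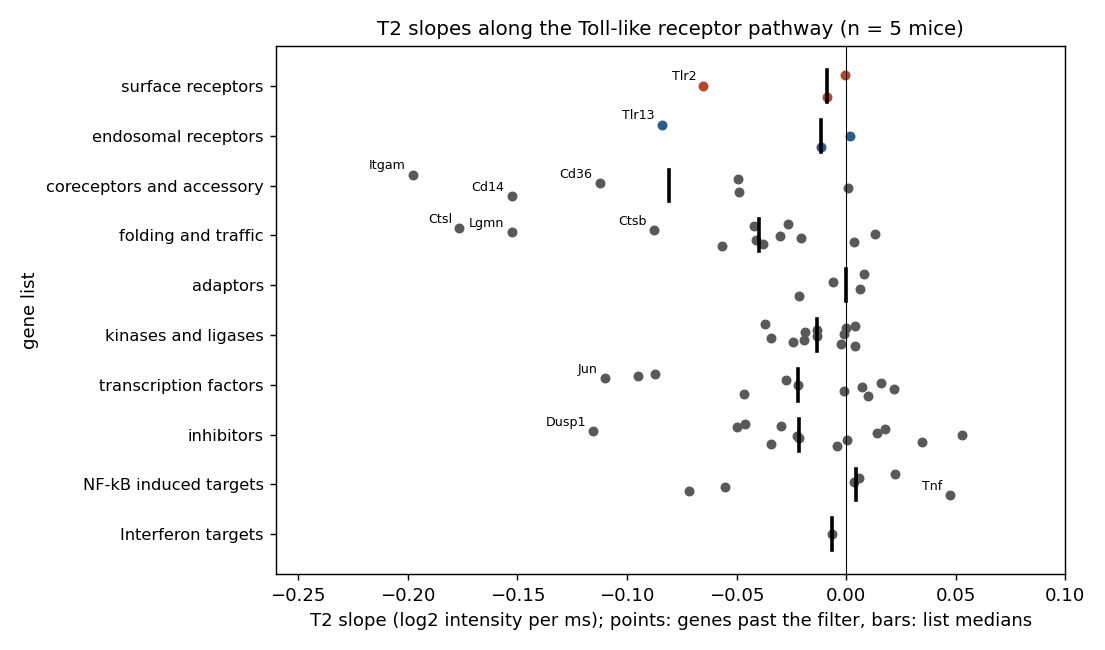
T2 slope in log2 intensity per ms (x axis) of each gene past the filter, by list of the Toll-like receptor pathway (y axis); black bars are list medians, -0.08 for co-receptors, -0.04 for folding and traffic and 0.0047 for NF-kB induced targets. Itgam, Ctsl, Lgmn and Cd14 lie farthest to the left, and adaptors and kinases lie near 0.

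Adaptors and the kinases behind them had small slopes. Myd88, the shared adaptor, read 229, 229, 280, 195 and 220 in mice 5, 4, 3, 2 and 1, highest in mouse 3 and lowest in mouse 2 as Tlr13 was, with a slope of -0.02 ± 0.031. Tirap, which recruits Myd88 to Tlr2 and Tlr4, lay under the filter at 57.6, 52.9, 52.9, 38.9 and 52.9. Ticam1, the adaptor of Tlr3, had a slope of 0.0061 ± 0.0082 and Ticam2, its bridge to Tlr4, -0.006 ± 0.0069. Of 4 adaptors and 12 kinases and ligases past the filter, 0 had an unadjusted p under 0.05 and 0 an adjusted one. Over all 6603 genes past the filter the shares were 5.29% and 0%, so 0 calls in short lists is not read as a result about them. Median slopes were 5.2e-05 and -0.01, and Tab2, Traf6 and Ikbkb had the lowest p of the kinase group, with slopes of -0.03, -0.02 and -0.02.

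Transcription factors, inhibitors and targets gave no call over all genes, where 0 of all 6603 genes past the filter did. An unadjusted p under 0.05 was found for 5.29% of those genes, the share beside which the counts below stand. Among 11 transcription factors Jun had a slope of -0.11 ± 0.026 (limma adjusted p = 0.604) and was the single one with an unadjusted p under 0.05. Relb and Fos followed at 0.022 ± 0.011 and -0.10 ± 0.053. Among 13 inhibitors the phosphatase gene Dusp1 had a slope of -0.12 ± 0.030 and Tnip1, a partner of A20, 0.018 ± 0.0057, the 2 with an unadjusted p under 0.05, each on a different side of 0. Sigirr, an inhibitory receptor with the same signalling domain, had 0.035 ± 0.016. Irak3, a kinase-dead inhibitor, read 178, 167, 167, 116 and 196 and Tollip was between 127 and 136. Jun, Fos, Dusp1 and Atf3, the last of them a stress-induced repressor, are also on the handling stress list. All 7 of its markers past the filter were highest in mouse 5, as were 34.3% of all genes past the filter. Besides those 4 they were Hspa1a, with a slope of -0.38 ± 0.040, Dnajb1, with -0.15 ± 0.036, and Egr1, with -0.010 ± 0.0056. The list mean had a slope of -0.14 ± 0.026, but the 4 genes enter it, so it is no independent comparison for them. The part of handling in those 4 genes was not tested.

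Genes that NF-kB induces downstream of the receptors had a median slope of 0.0047 over the 6 of 18 past the filter. Of these 2 slopes were negative and 4 positive, where 67.9% of all genes past it were negative. An unadjusted p under 0.05 was found for 0 of the 6, against 5.29% of all genes past the filter. Over all 18 genes, each with a probe set, the median was -0.0072. Tnf read 97.6, 106, 108, 110 and 137 in mice 5, 4, 3, 2 and 1, in the order of T2, at a slope of 0.047 ± 0.021 (limma adjusted p = 0.828). Ccl3, a chemokine, had -0.06 ± 0.026 and Cd40, a costimulatory receptor, 0.022 ± 0.019. Of the interferon targets 1 of 10, Oasl1, passed the filter, and it read 73.5 on all arrays but that of mouse 4, where it read 78.2.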

How the data were processed

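Total RNA of CD45+ cells from 5 mice was hybridised to 1 array each. The submitters' processing notes name RMA and Affymetrix Power Tools for the deposited intensities. Their versions and the genome build were not given in the sources used here. This method corrects background, quantile normalizes the arrays and summarises probes, and many genes have equal values on several arrays. The linear scale was recognised from array medians of 23.8 to 24.5 and a maximum of 19435. No 2 arrays shared more than 31.0% of their values, so each counted as a sample.

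Intensities were turned into log2. Platform annotation gave 21789 of 35556 probe sets 1 symbol. A linear model of log2 intensity on T2 was fitted by limma 3.58.1 (lmFit, eBayes; R version 4.3.3), with 3 residual degrees of freedom (two-sided, Benjamini-Hochberg over all genes tested, threshold 0.05). SE and 95% intervals come from it. Exact permutations used all 120 orders of the mice, where the smallest p is 0.00833, and are unadjusted.

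The members and lists were chosen with earlier results of these data known. Named genes are all members, set adaptors, co-receptors and regulators, the 3 genes of lowest p in each list, and the 3 nearest profiles of the surface and endosomal members with the widest range. T2 fell in the order of sample numbers, so effects of handling order and T2 cannot be told apart. The labels give no batch. Alternatives were other filters, renormalized or centred arrays, all probe sets averaged, ranks of T2, a variance trend, array weights, removal of genes with equal values, an acinar covariate, a threshold of 0.10 and each mouse left out.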

Additional observations from a re-analysis of the deposited data

Results flagged for a closer look

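Of 47 named genes, 7 had a mouse whose distance to its nearest neighbour took more than 0.71 of the range over the mice (the gap share). Genes with a smaller gap share, Tlr2 and Tlr4 among them, were not counted. The cut is nominally passed by about 1 in 20 genes with normally distributed values. The share of all genes past it was not computed, so 7 of 47 is not read as an excess. Of the 7, 5 had equal values on 3 or more arrays, which narrows the range of the others. Such equal values were found in 38.2% of all genes past the filter and 58.9% of the 19938 genes. Among the receptors, Tlr6 was lowest in mouse 3 at 75.7 against 79.3 in all others (gap share 1), and Tlr12 was highest in mouse 3 at 22.3 against 16.3 to 17.0 (0.862). Tirap was lowest in mouse 2 at 38.9 against 52.9 to 57.6 (0.783), Ticam2 highest in mouse 4 at 108 against 101 to 102 (0.868) and Ticam1 highest in mouse 1 at 73.4 against 67.5 to 69.1 (0.719). Cd40 was highest in mouse 1 at 145 against 118 to 121 (0.882), and Oasl1 highest in mouse 4 at 78.2 against 73.5 (gap share 1).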

How the results depend on the processing

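In every alternative run, 0 receptors passed the adjusted threshold, with the lowest adjusted p of a receptor in the test at 0.449, without mouse 1. Over all genes, 3 passed with a filter of 7, 4 with arrays quantile normalized again, 4 with array weights, 3 at a threshold of 0.10 and 35 with genes of equal values left out, where 2 of 53 pathway genes tested, Itgam and Lgmn, were among them. That removal tests fewer genes, 4079. The slope of surface minus endosomal receptors ran from -0.023 to -0.0010 without each mouse. Over the receptors with a mean of at least 6, a setting chosen after seeing the data, it was 0.00641 ± 0.029. A mean of at least 7 left only Tlr1 against Tlr9 and Tlr13, at 0.0324 ± 0.051. The sign of this slope thus depended on the receptors counted. Slopes of Tlr2, Tlr4 and Tlr13 kept their sign in the alternatives run, at -0.095 to -0.034, -0.082 to -0.028 and -0.13 to -0.049. Of 90 receptor slopes under the 10 alternatives that re-estimate them, 16 changed sign or reached 0, and for these the cause was not tested. With renormalized arrays Tlr1 had 0.0024 and Tlr6 0.0074, on ranks of T2 Tlr6 had 0 and Tlr8 -0.0025, and with array weights Tlr3 had 0.0022 and Tlr9 -0.011. Without each mouse in turn, slopes ran from -0.014 to 0.0036 for Tlr1, -0.0028 to 0.0020 for Tlr6, -0.0089 to 0.0029 for Tlr3, -0.025 to 0.0017 for Tlr7, -0.023 to 0.039 for Tlr8 and -0.039 to 0.034 for Tlr9. No paired analysis was possible because the mice form 1 group. Low signal limits Tlr3, Tlr4 and Tlr8, and 5 arrays limit every slope.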
